A study of Homo sapiens with 3 samples.

Results

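SNORD57 (U57), SNORD86 (U86) and SNORD110 (HBII-55) are 3 box C/D small nucleolar RNAs (snoRNAs) encoded in introns of one gene, NOP56. They were found by the name of their entry in the files and are 3 of 260 snoRNA entries with reads. The RNA came from HEK293, an established line of human embryonic kidney cells, and all 3 libraries belong to a single group with no treatment in the labels. Per the labels' protocols, the cells grew in medium with serum and antibiotics, RNA was isolated by phenol/chloroform extraction, and the small fraction was cleaned up on magnetic beads before adapter ligation. The libraries held 19989, 11958 and 19092 snoRNA counts. Separate cultures are not stated in the labels, so p-values reflect no more than the spread of these libraries, possibly a technical one. In such bulk RNA, fewer cells with a snoRNA and less of it per cell cannot be told apart. The files used here hold snoRNA and miRNA reads, so the cell line was not checked against mRNA markers.

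Box C/D snoRNAs assemble with fibrillarin, NOP56, NOP58 and the 15.5 kDa protein SNU13 into particles that place 2′-O-methyl groups on ribosomal RNA. Their ends come together in a stem in which the C box and the D box, the binding site of the core proteins, face each other, and exonucleases trim the excised intron up to that particle. NOP56, the host gene here, encodes one of the core proteins that its own intronic RNAs bind. SNORD57 and SNORD110 are known as guides for the methylation of 18S rRNA. SNORD86 is known as an element of the NOP56 pre-mRNA that acts in cis on the splicing of its host.

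The 3 genes lie on the plus strand of chromosome 20 within NOP56 (GRCh38, GENCODE 29). SNORD110 (ENSG00000221116.1, chr20:2654212-2654286, 75 nt) lies in intron 3 of the 11 introns of transcript NOP56-201. SNORD86 (ENSG00000212498.1, chr20:2656097-2656182, 86 nt) lies in intron 8, 62 nt after its first base and 218 nt before its last. SNORD57 (ENSG00000226572.1, chr20:2656939-2657010, 72 nt) lies in intron 10, 43 nt after its first base and 70 nt before its last. In other NOP56 transcripts these stretches are exonic: SNORD86 lies whole inside an exon in 5 of 20 annotated NOP56 transcripts, and 3 of these are not retained-intron forms. In NOP56-213 and NOP56-214 that exon runs from 2655934 to 2656214 and so extends exon 8 past SNORD86. For SNORD57 and SNORD110 the counts of transcripts with such an exon were 2 and 1.

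**Figure D1:**
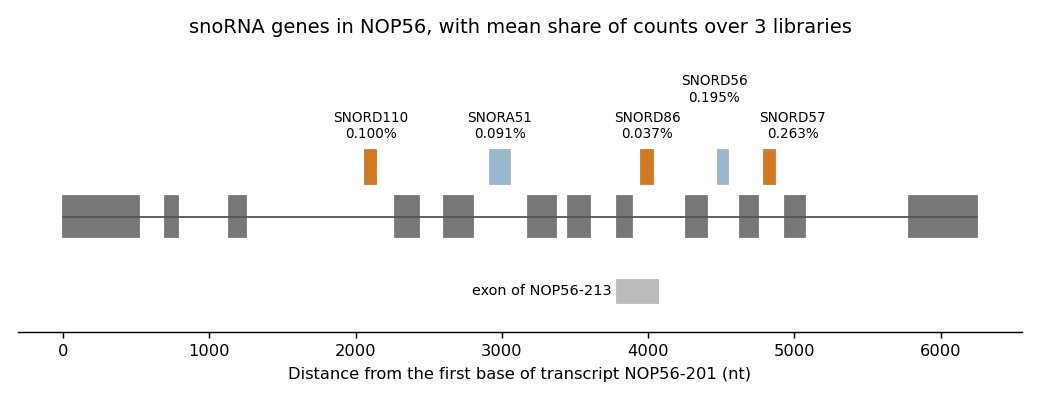
Map of the NOP56 gene drawn to scale, with distance in nt from the first base of transcript NOP56-201 on the x axis, its exons in dark grey on the line, the exon of NOP56-213 that contains SNORD86 in light grey, and the snoRNA genes above (members in orange, SNORD56 and SNORA51 in blue). Each name carries the mean share of all snoRNA counts over 3 libraries, which was highest for SNORD57 (0.263%) and lowest for SNORD86.

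The full sequences are shown because read ends are placed on them. The first position of an entry was taken as the first annotated base, and this was not checked against the read sequences. The highest positions seen, 72 and 75, equal the annotated lengths of SNORD57 and SNORD110, while that of SNORD86 was 85 of 86. Capitals mark the first TGATG, the core of the C box, and the last CTGA, the D box, read 5′ to 3′ from the annotated transcripts of GENCODE 29 (GRCh38, plus strand, written with T).
SNORD57: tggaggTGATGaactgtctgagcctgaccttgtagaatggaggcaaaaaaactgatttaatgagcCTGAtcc
SNORD86: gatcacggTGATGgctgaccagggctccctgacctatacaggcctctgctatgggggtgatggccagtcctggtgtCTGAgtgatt
SNORD110: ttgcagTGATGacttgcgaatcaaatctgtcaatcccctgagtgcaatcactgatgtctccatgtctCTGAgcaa
TGATG stood at positions 7 to 11 of SNORD57 and SNORD110 and at 9 to 13 of SNORD86. The last CTGA stood at 66 to 69, 68 to 71 and 77 to 80 of SNORD57, SNORD110 and SNORD86. Of 275 annotated SNORD sequences, 82.9% hold TGATG within the first 20 bases and 94.9% begin a CTGA within the last 20, searched on the transcribed strand. Among 954 other annotated snoRNA transcripts none lay within 10 edits of any of the 3 sequences, and the nearest was 27 edits away, so their reads are not shared with a near-identical annotated copy. The name U86 is also a synonym of SNORD139 on chromosome 22 in the RefSeq gene table (GRCh38.p14), but that RNA is 55 nt long and reads of the U86 entry reached position 85, so the entry was taken as SNORD86.

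SNORD57 was the most abundant of the 3 and SNORD86 the least, in each library. SNORD57 had 53, 37 and 41 reads in libraries 1, 2 and 3, or 0.265%, 0.309% and 0.215% of all snoRNA counts, with exact (Clopper-Pearson) 95% intervals of 0.199% to 0.347%, 0.218% to 0.426% and 0.154% to 0.291%. These intervals overlap each other. SNORD110 had 20, 10 and 22 reads, or 0.100%, 0.0836% and 0.115%, and its intervals overlap as well. SNORD86 had 12, 0 and 10 reads, or 0.0600%, 0% and 0.0524%. No molecular identifiers were used, so reads need not be separate molecules, and the intervals and floors describe counting error only.

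**Figure D2:**
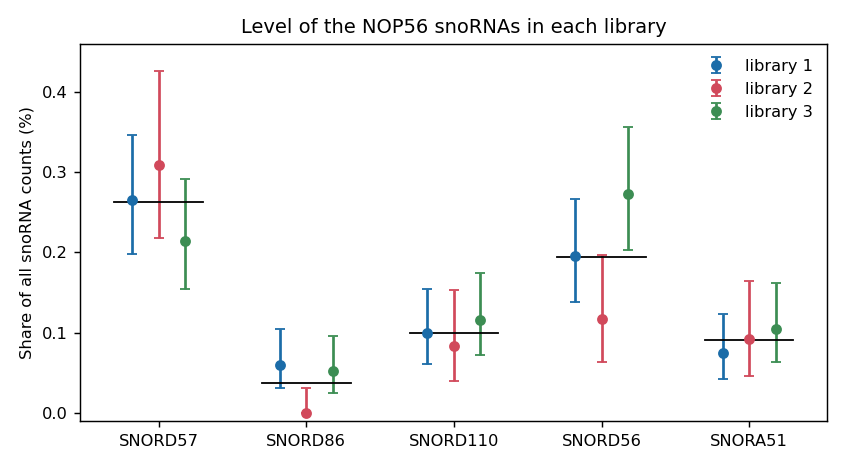
Share of all snoRNA counts in percent (y axis) for the 5 snoRNAs of NOP56, with a point per library, bars for exact 95% binomial intervals (counting error only) and a black line for the mean of 3 libraries. SNORD57 lies above SNORD110 and SNORD86 in every library, and the SNORD86 point of library 2 lies at 0.

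The mean shares were 0.263% ± 0.047 for SNORD57, 0.0996% ± 0.016 for SNORD110 and 0.0375% ± 0.033 for SNORD86 (SD, n = 3 each). They ranked 93, 134 and 184 of 260 entries by mean share. The median was 0.114% over all entries and 0.332% over the 147 box C/D entries, so all 3 lay below the box C/D median. Together they took 0.400% ± 0.022 of the counts (SD, n = 3), with 205 reads in all.

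Set per nucleotide of RNA, the level was 36.5 ± 6.6 CPM (counts scaled to the library total) per nt for SNORD57, 13.3 ± 2.1 for SNORD110 and 4.41 ± 3.8 for SNORD86 (SD, n = 3 each). The order was as for the shares. Many reads spanned nearly the whole RNA, so counts need not grow with its length. The values per nt are thus no better measure of level than the shares. SNORD57 exceeded SNORD110 by 2.65-fold, 3.70-fold and 1.86-fold in libraries 1, 2 and 3, a mean of 2.63-fold. SNORD57 exceeded SNORD86 by 4.42-fold in library 1 and 4.10-fold in library 3. In library 2, with SNORD86 set to the floor of 3 counts, the ratio was 12.3-fold. SNORD110 exceeded SNORD86 by 1.67-fold and 2.20-fold in libraries 1 and 3, and by 3.33-fold in library 2 with the same floor. The ratios that use the floor are not strict lower bounds. All 3 ratios had the same direction in 3 of 3 libraries. An exact permutation test that flips the signs of the log2 ratios (two-sided) gave p = 0.25 for each, also after Benjamini-Hochberg adjustment over the 3 pairs, which is the smallest p that 3 libraries allow. SNORD110 and SNORD86 in libraries 1 and 3 had overlapping intervals (0.0611% to 0.154% against 0.0310% to 0.105% in library 1), so the intervals do not set them apart there. Whether they differed within a library was not tested.

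SNORD86 was not detected in library 2. A count of 0 of 11958 allows a share of up to 0.0251% with 3 counts as the floor, below the 0.0600% and 0.0524% of libraries 1 and 3. The exact 95% upper bound in library 2 was 0.0308%, above the lower bound of 0.0251% in library 3 but just below that of 0.0310% in library 1, so the interval of library 2 overlaps that of library 3 and not that of library 1. At the mean share of those libraries, library 2 would have held 6.72 reads. Of the 158 snoRNAs with at least 10 reads in libraries 1 and 3, 4 had none in library 2: SNORD86, SNORA67, SNORD103A and SNORD59B. Library 2 was the shallowest and had shorter reads, with 27.3% of all counts at up to 40 nt against 11.9% and 12.1% in libraries 1 and 3, and whether this bears on the missing SNORD86 reads was not tested.

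The total shares of SNORD57 and SNORD110, over reads of all sizes, varied little between libraries. The highest share was 1.44 times the lowest for SNORD57 and 1.38 times for SNORD110, against a median of 1.79 over the 125 snoRNAs that had 10 or more counts in each library. Of these 125, 29 varied less than SNORD57 and 20 less than SNORD110. The SNORD110 ratio rests on 20, 10 and 22 reads. The steady total of SNORD57 does not hold by read size. Its reads spanning at least 90% of the RNA numbered 32, 7 and 27 in libraries 1, 2 and 3. Those of up to 40 nt numbered 16, 26 and 10, so library 2 held mostly short pieces.

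NOP56 holds another box C/D snoRNA, SNORD56, and a box H/ACA snoRNA, SNORA51, a class that guides pseudouridylation. SNORD56 had 39, 14 and 52 reads (0.195% ± 0.078, SD, n = 3), and its sequence has a near copy, SNORD56B, 8 edits away, whose reads may be counted with it. SNORA51 had 15, 11 and 20 reads (0.0906% ± 0.015). Unlike SNORD57, SNORD56 was lowest in library 2, and its 95% interval there (0.0640% to 0.196%) did not overlap that of library 3 (0.203% to 0.357%). All 5 snoRNAs of NOP56 took 0.686% ± 0.079 of the counts (SD, n = 3), with a member median of 0.0996% beside the median of 0.114% over all entries.

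The genes of some other nucleolar proteins host snoRNAs as well. In NOP58, which encodes the partner of NOP56 in the particle, SNORD70 and SNORD11 had mean shares of 0.287% and 0.660%. In NCL, the gene of nucleolin, SNORD82 had 1.04%, SNORD20 0.489% and SNORA75 0.173%. In GNL3, the gene of nucleostemin, SNORD69 had 2.31% and SNORD19 had 3 reads in all. Entries HBII-95B and HBII-108B, whose names point to SNORD11B of NOP58 and SNORD19B of GNL3, were not matched to a symbol. Each had at least 10 counts in every library, but their levels are not given here. In DKC1, the gene of the pseudouridine synthase dyskerin, SNORA36A and SNORA56 had 5 and 7 reads. Among matched entries, the levels of snoRNAs of one host thus spanned from 0.00628% to 2.31% in GNL3 and from 0.0375% to 0.263% in NOP56.

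By level over the 3 libraries (Euclidean distance of log2 CPM), SNORD49B and SNORD121B were most like SNORD57, at distances of 0.48 and 0.57 among 124 snoRNAs. For SNORD110 the nearest was SNORA51 of the same host (0.43), followed by SNORD12 (0.63). For SNORD86, among all 259 other entries, they were SNORD59B with 10, 0 and 11 reads (0.27) and SNORA37 with 9, 0 and 9 reads (0.40).

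SNORD57 and SNORD110 differed in which pieces were read. SNORD57 gave full-length reads and a large set of short reads from its 5′ end. SNORD110 gave full-length reads and pieces of both ends, those of the 3′ end leading in library 1. SNORD86 gave reads of nearly the whole RNA in 9 of 10 cases in library 3. In library 1 its share of such reads (58.3%) was close to those of SNORD57 (60.4%) and SNORD110 (55%), and in library 2 it had no reads.

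Full-length reads, here those spanning at least 90% of the RNA, made up 60.4%, 18.9% and 65.9% of SNORD57 reads in libraries 1, 2 and 3 (32, 7 and 27 reads). For SNORD110 they made up 55%, 30% and 50% (11, 3 and 11 reads), and for SNORD86 58.3% and 90% in libraries 1 and 3 (7 and 9 reads). The means were 48.4% ± 26 and 45.0% ± 13 for SNORD57 and SNORD110 (SD, n = 3 each), against a median of 70.3% over the 108 box C/D snoRNAs that had 10 or more counts in each library. For SNORD56, in the same gene, the mean was 82.4% ± 6.4 (SD, n = 3).

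Short reads, those of up to 40 nt, were 16, 26 and 10 of the SNORD57 reads, or 30.2%, 70.3% and 24.4%, with exact 95% intervals of 18.3% to 44.3%, 53% to 84.1% and 12.4% to 40.3%. Library 2 stood above libraries 1 and 3 with no overlap of its interval with theirs. Over all snoRNAs short reads were also more frequent there (27.3%, against 11.9% and 12.1% in libraries 1 and 3), and full-length reads less (55.1%, against 69.3% and 66.2%). Whether the SNORD57 values of library 2 go beyond this shift was not tested. SNORD110 had 8, 5 and 3 short reads, or 40%, 50% and 13.6%. SNORD86 had 2 and 1 in libraries 1 and 3, or 16.7% and 10%. The means were 41.6% ± 25 for SNORD57 and 34.5% ± 19 for SNORD110 (SD, n = 3 each), against a median of 15.4% over the 108 box C/D snoRNAs, of which 12 lay above SNORD57 and 18 above SNORD110.

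**Figure D3:**
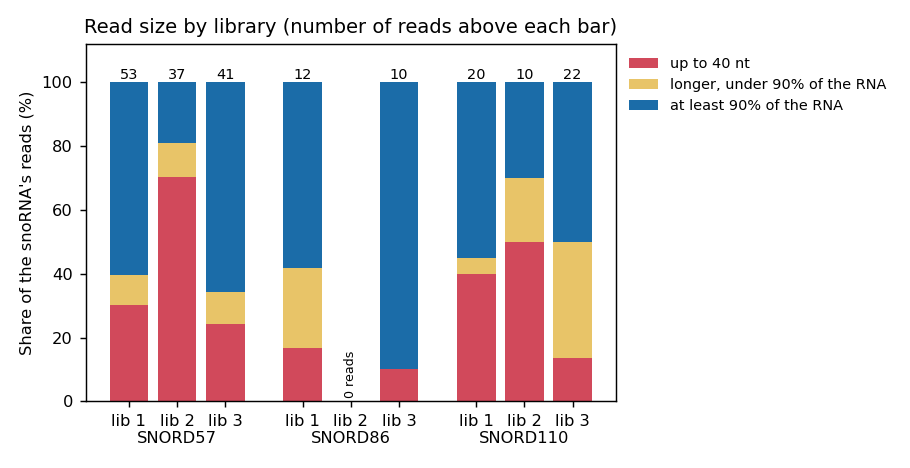
Reads of each snoRNA in each library by size, as a percentage of its reads (y axis): up to 40 nt in red, longer but under 90% of the RNA in yellow, at least 90% of the RNA in blue, with the number of reads above each bar. In library 2 short reads make up 70.3% of SNORD57 reads and full-length reads 18.9%, and SNORD86 has 0 reads there.

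Short and longer reads of every snoRNA were compared in 1 edgeR quasi-likelihood fit over 125 snoRNAs. It tests the ratio of short to longer reads against the bulk of snoRNAs in the same libraries. Here and in the later position fit, the SE is the absolute log2 ratio over the square root of the F statistic. Dispersion is moderated over all snoRNAs, so SE and p do not measure the spread of a snoRNA over its own libraries alone. Of these, 42.4% were called at a Benjamini-Hochberg adjusted p under 0.05, 24% with more short reads and 18.4% with fewer. SNORD57 had more short reads, with a log2 ratio of 1.97 ± 0.51 (SE, n = 3) and an edgeR adjusted p of 0.000743, and 12 snoRNAs had a higher ratio. SNORD110 had more short reads by 1.48 ± 0.53 (SE, n = 3) with an edgeR adjusted p of 0.0154, and 24 snoRNAs had a higher ratio. SNORD56 (-0.73 ± 0.62) and SNORA51 (-0.45 ± 0.61) did not pass, with edgeR adjusted p of 0.363 and 0.619. SNORD86 was not in this fit, since it had fewer than 10 counts in library 2.

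Of the snoRNAs in NOP56, 2 of 4 tested thus had more short reads and 0 had fewer. Among entries matched to a symbol, the counts with more short reads were 1 of 2 for NOP58, 1 of 3 for NCL and 0 of 1 for GNL3, whose SNORD69 had fewer (-1.57, edgeR adjusted p = 0.00021). The unmatched entries HBII-95B and HBII-108B, whose names point to SNORD11B of NOP58 and SNORD19B of GNL3, are left out of these counts. Neither was called (-0.42 and -0.24, edgeR adjusted p = 0.486 and 0.681). No snoRNA of DKC1 had enough counts for this test. The call for SNORD57 was lost without library 2 (1.47, edgeR adjusted p = 0.0707). The call for SNORD110 was lost without library 1 (0.95, edgeR adjusted p = 0.307), without library 2 (1.37, edgeR adjusted p = 0.176) and with 3 other settings.

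**Figure D4:**
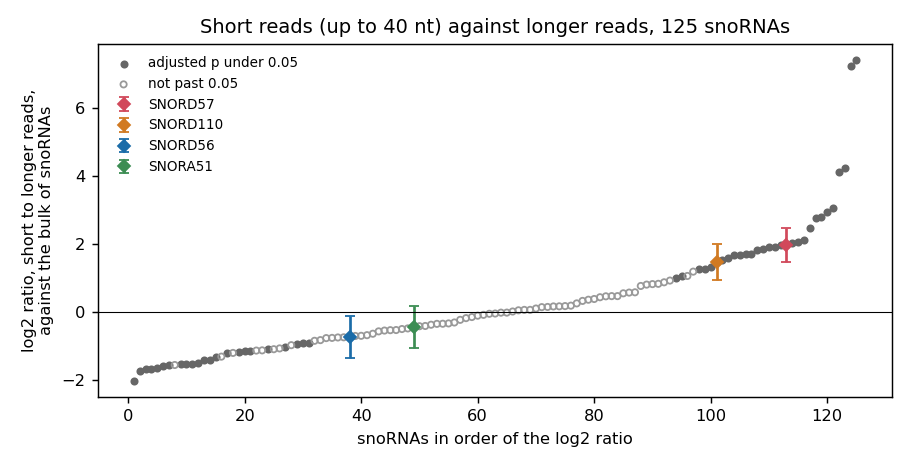
The log2 ratio of short to longer reads against the bulk of snoRNAs (y axis) for the 125 snoRNAs tested, in order of that ratio (x axis). Filled points passed an adjusted p of 0.05, and diamonds with SE bars mark SNORD57 (1.97), SNORD110 (1.48), SNORD56 (-0.73) and SNORA51 (-0.45).

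The short reads of SNORD57 came from its 5′ end. Of 52 short reads over the 3 libraries, 46 began within the first 3 positions, 2 reached the last 3 positions, 3 lay inside, and 1 was on the opposite strand. The leading short read ran from position 1 to 29 and had 3, 9 and 4 reads, and that from 2 to 29 had 4, 1 and 1. Position 29 ended 7, 10 and 5 reads in libraries 1, 2 and 3, and position 28 ended 1, 4 and 1. Reads of 27 to 31 nt made up 17%, 48.6% and 19.5% of SNORD57 reads, and reads of 20 to 24 nt, the size of a miRNA, 9.43%, 13.5% and 2.44% (5, 5 and 1 reads).

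The main short fragments of SNORD57 and SNORD110 are shown to place their ends beside the CTGA matches, which are in capitals.
SNORD57 1 to 29 (chr20:2656939-2656967): tggaggtgatgaactgtCTGAgcCTGAcc
SNORD110 42 to 75 (chr20:2654253-2654286): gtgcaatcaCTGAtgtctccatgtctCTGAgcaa
SNORD110 47 to 75 (chr20:2654258-2654286): atcaCTGAtgtctccatgtctCTGAgcaa
In SNORD57 the CTGA at positions 24 to 27 ends 2 nt before the leading short read does. SNORD57 has further CTGA matches at 18 to 21 and 52 to 55. A CTGA outside the last 20 bases is common, found in 67.6% of annotated SNORD sequences, and no site or cause is read from it. Reads that began at position 32 of SNORD57 numbered 1, 3 and 1.

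The incomplete reads of SNORD110 came from both ends. Of 26 reads on its own strand that spanned under 90% of the RNA, 16 reached the last 3 positions and 10 began within the first 3. By library, 7, 3 and 6 were at the 3′ end and 2, 4 and 4 at the 5′ end, so that library 2 did not share the direction of libraries 1 and 3. In SNORD57 the 3′ and 5′ counts over all libraries were 5 and 55 of 64, and in SNORD86 0 and 3 of 6. Among reads of up to 40 nt, SNORD110 had 7, 2 and 1 at its 3′ end and 1, 3 and 1 at its 5′ end, and without library 1 these sum to fewer at the 3′ end than at the 5′ end. Reads from 42 to 75 numbered 3, 0 and 0, those from 47 to 75 numbered 2, 0 and 1, and those from 32 to 75 numbered 0, 0 and 3. No single fragment of SNORD110 other than near full-length reads was seen in all 3 libraries. The read that begins at 42 starts right after the CTGA at 38 to 41.

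Reads were also assigned by their midpoint to the 5′ or the 3′ part of an RNA. These parts were compared in 1 edgeR fit over the 108 snoRNAs that had 10 or more assigned counts in each library. Reads centred on the middle itself, such as full-length reads from 1 to 72 of SNORD57, were left out, but a full-length read that is off centre by 1 position counts in a part. Of the 108, 66.7% were called, 39.8% with more 5′ and 26.9% with more 3′ reads, so a call is common here. SNORD57 had 21, 27 and 14 reads in its 5′ part and 4, 4 and 3 in its 3′ part, a log2 ratio of 3′ to 5′ of -2.43 ± 0.41 (SE, n = 3) with an edgeR adjusted p of 0.00286, in 3 of 3 libraries. With a library size for each part, which moved the median of all ratios from -0.75 to 0.21, the SNORD57 ratio was -1.51 (edgeR adjusted p = 0.0158). SNORD110 had 2, 4 and 8 reads in its 5′ part and 9, 4 and 7 in its 3′ part, too few for the filter. Without a filter on counts its log2 ratio was 0.53 ± 0.62 (SE, n = 3), with an edgeR adjusted p of 0.545. For SNORD86 this placing is not informative: its reads begin at position 3, so that full-length reads made up 6 of the 7 reads in its 3′ part in library 1 and 9 of 10 in library 3. In the 5′ part of SNORD57, 18, 26 and 12 of the reads were incomplete, and in its 3′ part 2, 4 and 2.

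**Figure D5:**
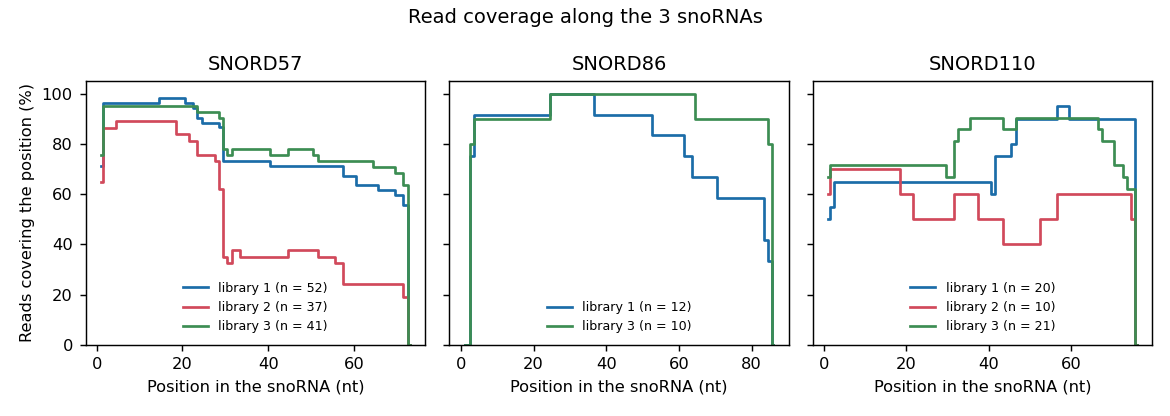
Percentage of a snoRNA's reads on its own strand that cover each position (y axis) along the RNA in nt (x axis), with a line per library and the number of reads in the legend. In SNORD57 the lines step down at positions 28 to 30, most in library 2, in SNORD110 coverage at position 75 is above that at position 1 in library 1 (18 against 10 of 20 reads) but not in libraries 2 and 3, and in SNORD86 reads begin at position 3.

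In each of the 3 RNAs 1 start position led. SNORD57 reads began at position 1 in 71.2%, 64.9% and 75.6% of cases and ended at position 72 in 55.8%, 18.9% and 63.4%. The start varied less between libraries (70.5% ± 5.4) than the end (46% ± 24; SD, n = 3 each), which was lowest in library 2. SNORD110 began at position 1 in 50%, 60% and 66.7% and ended at position 75 in 90%, 50% and 61.9%. SNORD86 began at position 3 in 75% and 80% of its reads in libraries 1 and 3 and ended at position 85 in 33.3% and 80%. In the numbering of the entry, no SNORD86 read covered a position before 3 or after 85, of 86 annotated bases. SNORD57 and SNORD110 reads reached both annotated ends. Whether the numbering of the SNORD86 entry matches the annotated sequence was not checked, so no missing base is read from this. Of SNORD86, the read from 3 to 85 had 4 and 7 reads in libraries 1 and 3 and that from 3 to 84 had 1 and 1. No read other than that from 3 to 85 was seen more than once in a library. The read from 1 to 72 of SNORD57 had 27, 5 and 23 reads, and that from 1 to 75 of SNORD110 had 9, 2 and 6. The SNORD110 read from 2 to 75 had 1, 1 and 1.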

How the data were processed

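Each line of the deposited files is a distinct read sequence on one snoRNA, with its length, first and last position and raw count, per the file headers. The submitters' processing notes name the build GRCh38.p10; no aligner, trimming or filter is given in the sources used here. No read was shorter than 18 nt. A further deposited table of counts has 2 per-sample columns that fit no sample's title, and these stayed out. Its column for library 1 lists SNORD57 with 53 counts, as the library's own file does, but SNORD86 and SNORD110 (12 and 20 reads in that file) are not among its 122 snoRNAs. Library numbers follow deposition order.

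Entries were named through RefSeq symbols and synonyms (GRCh38.p14), and coordinates, introns and sequences came from GENCODE 29. The length used for full-length reads and for the middle of an RNA was the highest position seen. Reads that ended before they started were taken as opposite-strand (1 read each of SNORD57 and SNORD110); it counts in the shares but not in ends or positions.

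Position and size tests used edgeR 4.0.16 (quasi-likelihood, library as block, at least 10 counts in every library). Position used 1 library size for both parts, and size used TMM factors. Both were tested on simulated data with 1 dispersion for all snoRNAs, a simpler setting than the real data. The size test recovered 68% of 4-fold and 100% of 16-fold changes, with 5.56% and 7.41% of its calls false. For the position test recovery was 100% at both folds, with 8.33% and 0% of calls false. DESeq2 1.42.0 served as an alternative. Other software was R 4.3.3, Python 3.11.15, SciPy 1.17.1, NumPy 2.4.6, pandas 2.3.3 and, for plots, matplotlib 3.10.9. The members, lists and tests were chosen with earlier results of these data known. Besides the members, the snoRNAs named are those matched to the genes of NOP58, DKC1, NCL and GNL3, and the 2 nearest in level to each member. The leading reads of each member are also given. Other snoRNAs were named after their values were seen.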

Additional observations from a re-analysis of the deposited data

How the results depend on the processing

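Depth is the main limit: SNORD86 rests on 22 reads, SNORD110 on 52 and SNORD57 on 131. Of 149 values under alternatives, 124 kept their direction, call or size, 19 moved, 6 lost a call and 0 reversed. Part of this tally was fixed in advance and does not measure robustness. A share counted as moved only if it shifted by its SD over libraries, which leaving out 1 library cannot do. The ratios between members had no call to lose. All 3 ratios between members kept their direction under each alternative. With library sizes per part, 44 snoRNAs had more 3′ reads instead of 29. With reads spanning at most 50% of the RNA, 10 had more 3′ and 12 more 5′ reads (44 tested), SNORD57 among those not tested. With short reads up to 30 nt, 11 instead of 23 snoRNAs had fewer short reads. SNORD110 lost its call with column totals (1.37, edgeR adjusted p = 0.0602), without a count filter (1.20, edgeR adjusted p = 0.207) and with short reads up to 30 nt (1.56, edgeR adjusted p = 0.0583). DESeq2 gave it a log2 ratio of 1.47 with an unadjusted DESeq2 p of 0.0755 and no adjusted p, so that setting is not in the tally above. SNORD57 kept both calls with DESeq2.

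Leaving out 1 library at a time, the log2 ratios of the size test ran from 1.47 to 2.38 for SNORD57 and from 0.95 to 2.13 for SNORD110, and the snoRNAs with fewer short reads from 2 to 15. The SNORD57 position ratio ran from -2.54 to -2.28. The snoRNAs called by position ran from 26 to 37 toward 3′ and from 32 to 62 toward 5′, and those with more short reads from 22 to 25.

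Ungapped reads gave SNORD57 a share of 0.215%. With each distinct sequence counted once, the shares of SNORD57 and SNORD110 were 0.419% and 0.206%, and the short share of SNORD86 was 23.6%, while up to 30 nt it was 0%. Within 1 nt, the leading start held 92.6% of SNORD57 and 90.8% of SNORD86 reads. Among full-length reads the leading start held 88.4%, 87.3% and 79.8% in SNORD57, SNORD86 and SNORD110, and the leading end 83.6% in SNORD57 and 87.9% in SNORD110. Where not given above, the cause was not tested.

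No paired analysis was possible because the labels give 1 group, with no second group to pair samples with. Parts of the same library were compared within it.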

Other observations

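Many full-length SNORD57 reads were longer than the stretch they covered. Of 66 full-length reads, 33 were longer than their span, by 1 nt in 20, 2 nt in 7, 3 nt in 4 and 4 nt in 2, and 4 were shorter. By library the longer ones were 13 of 32, 5 of 7 and 15 of 27. The SNORD57 sequence holds a run of 7 A at positions 45 to 51, while the longest runs of 1 base are 5 G in SNORD86 and 4 C in SNORD110. In SNORD110, 6 of 25 full-length reads were longer than their span, and in SNORD86 1 of 16.

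Among 83 box C/D snoRNAs with at least 20 full-length reads and an annotated sequence, the median share of such longer reads was 14.4%. SNORD102, whose longest run has 8 bases, lay above SNORD57 (70.9% against 50%), and no other did. The median share was 25.9% over the 7 snoRNAs with a run of 6 or more bases, 15.2% over the 13 with a run of 5, 14.5% over the 36 with a run of 4 and 13.1% over the 25 with a run of 3. This grouping was chosen after the SNORD57 values were seen, the part of the base run in the longer reads was not tested, and a single read position cannot be given from length and span.

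miR-1292, a miRNA annotated in NOP56 upstream of SNORD110, was not among the 137 miRNAs listed in the deposited table. That table also leaves out SNORD86 and SNORD110, which had reads, so a missing entry does not show a count of 0.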
